A study of Arabidopsis thaliana with 12 samples.

Results

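The clade A protein phosphatases 2C (PP2Cs) of Arabidopsis thaliana are a family of 9 genes, ABI1, ABI2, HAB1, HAB2, AHG1, AHG3, HAI1, HAI2 and HAI3. They were picked by locus identifier from the 32833 genes counted in a seed RNA sequencing study, and all 9 passed the filter on low counts that left 18897 genes for testing. The study set wild-type seeds of the ecotype Col-0 beside seeds of erf4-1, a mutant in that ecotype which the labels call an ERF4 knock out. ERF4 is an ethylene response factor with a repressor motif. Freshly harvested seeds were sampled dry or after 6 h on saturated filter paper (imbibed), with 3 libraries for each genotype in each state and 12 in all. Nothing in the labels ties the replicates to separate plants or harvests. The p-values below therefore speak of the spread between these libraries, and that spread may be technical.

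Abscisic acid (ABA) keeps seeds dormant, and clade A PP2Cs are the brake on its signal. In the absence of the hormone they dephosphorylate the SnRK2 kinases and hold them inactive. When ABA is present, receptors of the PYR/PYL family bind the phosphatases and block them, the kinases are released, and transcription factors such as ABI5 are phosphorylated. The family falls into the ABI and HAB phosphatases, best known from germination and stomata, the AHG phosphatases, which act in seeds and bind the dormancy protein DOG1, and the HAI phosphatases, known as genes that ABA and water deficit induce in seedlings.

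Total counts ran from 31787283 to 42590777 per library, and the counts behind a member ran from 75 for HAI1 to 30045 for AHG1. ERF4 transcript was not uniformly low in the libraries labelled erf4. It stood at 27.7%, 64.3% and 109% of the Col-0 mean in dry replicates 1, 2 and 3, and at 9.3%, 39.2% and 83.3% in the imbibed ones. The log2 difference of ERF4 was -0.58 ± 0.61 dry (edgeR adjusted p = 0.691) and -1.18 ± 0.61 imbibed (edgeR adjusted p = 0.387). Averaged over both states it was -0.88 ± 0.43 (edgeR adjusted p = 0.291). Without both libraries of number 3 these edgeR adjusted p were 0.371, 0.249 and 0.0807, so ERF4 itself was not called. Levels are given as TMM-scaled CPM, the counts of a gene scaled to a common library size. Dry replicate 3, at 15.3 CPM of ERF4, lay within the dry Col-0 range of 12.5 to 15.9 CPM and so went against its label. Imbibed replicate 3, at 14.9 CPM, was near the imbibed Col-0 libraries (15.7 to 21.0 CPM) but below all of them. The libraries are therefore called labelled erf4 throughout, and results are also given without both libraries of number 3. Seed storage and oil body markers together made up 60360 to 206167 CPM of every library, while LEC1, an embryo regulator of earlier seed development, was at 0 in 3 of the 4 groups. Summed marker levels stood apart between genotypes in several cases. In dry seeds the 9 pollen markers summed to 233 to 406 CPM in Col-0 and 30.4 to 61.9 CPM in the libraries labelled erf4 (edgeR called 7 of 9 lower), the seed markers to 147810 to 206167 CPM and 112606 to 137993 CPM (0 of 5 tested called), and the 5 green tissue markers to 48.1 to 70.1 CPM and 80.1 to 199.9 CPM (0 of 3 tested called). The endosperm markers overlapped between genotypes in both states (dry, 16218 to 29932 CPM in Col-0 and 3967.5 to 17175.7 CPM labelled erf4). In imbibed seeds the green tissue markers summed to 42.8 to 64.3 CPM in Col-0 and 89.5 to 136 CPM in the libraries labelled erf4 (0 of 3 tested called), with LHCB2.1 at 0 in the latter. Of these 3, DESeq2 called 2 in dry and 1 in imbibed seeds. By edgeR 3 and 2 had an unadjusted p under 0.05, and 1 was called higher averaged over both states. Over all genes DESeq2 called 4.52% in dry and 2.82% in imbibed seeds, and 15.6% and 15.0% had an unadjusted edgeR p under 0.05. The part of these differences in the results below was not tested.

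The family shares a catalytic domain and differs in how receptors grip it. In most members a single tryptophan of the phosphatase inserts next to the ABA-bound receptor and locks the complex, and AHG1 is the member known to lack it and to escape receptor inhibition. The stretch around this residue is shown because it is a place in the coding sequence where the most abundant member of the family departs from the other 8. It was read from the TAIR10.1 genome with RefSeq coding annotation, 5′ to 3′ on the coding strand, with the aligned codon in capitals.
AHG1: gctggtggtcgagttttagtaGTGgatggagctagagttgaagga
AHG3: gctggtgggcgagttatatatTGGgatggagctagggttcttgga
HAI1: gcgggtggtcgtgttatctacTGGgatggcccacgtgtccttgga
HAI2: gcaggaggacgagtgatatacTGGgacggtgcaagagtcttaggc
HAI3: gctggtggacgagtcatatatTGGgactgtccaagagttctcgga
ABI1: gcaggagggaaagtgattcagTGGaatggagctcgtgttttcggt
ABI2: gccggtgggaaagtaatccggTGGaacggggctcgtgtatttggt
HAB1: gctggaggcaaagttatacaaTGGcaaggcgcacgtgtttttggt
HAB2: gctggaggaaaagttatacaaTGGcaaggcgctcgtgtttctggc
The codon was TGG, which encodes tryptophan, in 8 members, at codon 300 in ABI1 and codon 385 in HAB1 and HAB2. In AHG1 the aligned codon 290 was GTG. Over whole coding sequences HAB1 and HAB2 shared 77.3% of aligned bases, ABI1 and ABI2 77.2%, and HAI2 and HAI3 70.0%, while HAB2 and HAI1 were least alike at 45.3%. No member had a copy of at least 95% identity over 100 bp elsewhere in the genome, with the closest stretch at 90.7% between HAB1 and HAB2. The sole overlap with another gene was 22 bp between ABI1 and MEK1 on the other strand, and the whole of MEK1 had 24 to 79 counts per library beside 655 to 1710 for ABI1.

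In dry Col-0 seeds AHG1 made up most of the family's transcript. Levels between genes are given as CPM per kb of exonic length, and gene positions are those of the deposited table (TAIR10). AHG1 (AT5G51760, chr5:21026805-21029188, plus strand) stood at 336, 392 and 527 CPM per kb in the 3 libraries, which was 59.9% ± 5.61 (SD, n = 3) of the family sum. That level exceeded those of 99.1% of the genes tested. AHG3 (AT3G11410, chr3:3583782-3585850, minus strand; PP2CA in RefSeq) came next at 68.6 CPM per kb, with its libraries apart from AHG1 above and HAB1 below. HAB1, HAI2, ABI2, HAB2 and HAI3 followed between 40.6 and 33.0 CPM per kb, and within this run each gene overlapped the next. ABI1 at 14.6 and HAI1 at 9.87 CPM per kb were the lowest, each apart from the member above it. Dry seeds labelled erf4 had the same top and bottom pairs, with AHG1 at 60.5% ± 6.15 (SD, n = 3) of the sum.

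After 6 h of imbibition the order had changed in its middle. In Col-0 AHG1 still led at 187 CPM per kb but held 33.2% ± 1.39 (SD, n = 3) of the sum, and HAI3 at 117 and HAI2 at 101 CPM per kb now stood above AHG3 at 77.4, with the libraries of HAI3, HAI2 and AHG3 overlapping from one to the next. HAI2 and HAI3 together went from 10.2% ± 1.87 to 38.6% ± 1.96 of the family sum in Col-0 and from 11.4% ± 2.39 to 35.8% ± 2.85 in the libraries labelled erf4 (SD, n = 3 each). HAI1, the third HAI gene, was at the bottom in both genotypes, at 2.72 and 1.08 CPM per kb. The family sum itself was 620.0, 652 and 806 CPM per kb in dry Col-0 and 559, 476 and 654 in imbibed Col-0, so those groups overlapped. In the libraries labelled erf4 it was 803, 787 and 719.7 dry and 363, 439 and 369.5 imbibed, and these groups did not overlap. Without AHG1 the sum in Col-0 was higher in every imbibed library (326 to 434 CPM per kb) than in any dry one (259.9 to 284).

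**Figure D1:**
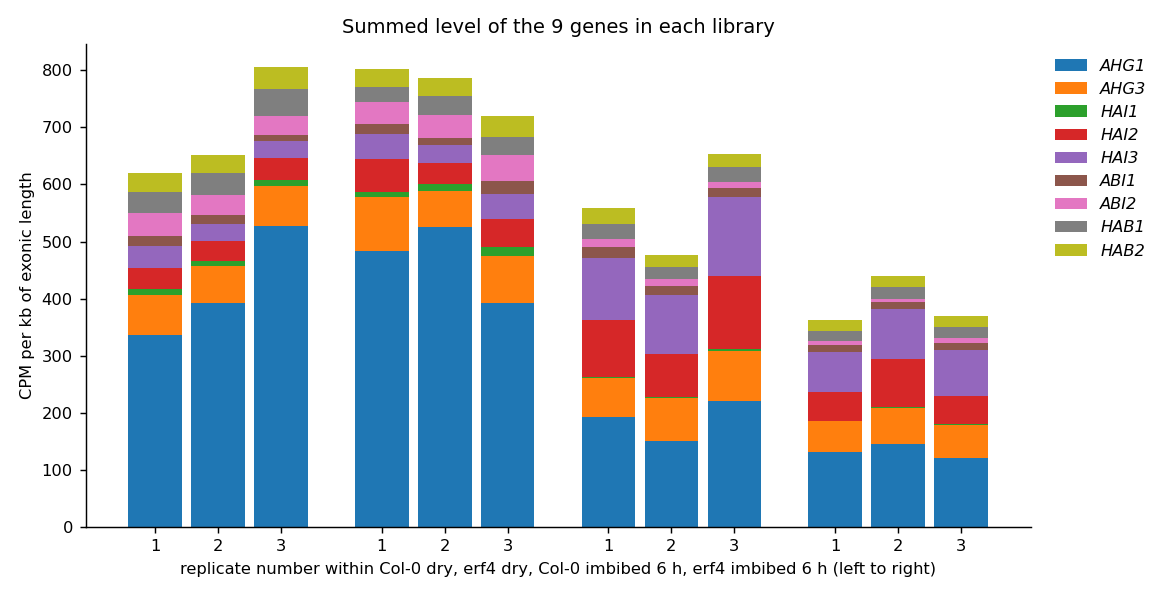
Summed level of the 9 clade A PP2C genes in each of the 12 libraries, in CPM per kb of exonic length, stacked by gene. AHG1 takes 59.9% of the bar on average in dry Col-0 and 33.2% in imbibed Col-0, while the HAI2 and HAI3 segments together go from 10.2% to 38.6%.

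Upon imbibition of Col-0 seeds 2 of the 9 phosphatases rose, HAI3 and HAI2, 5 fell, HAI1, ABI2, AHG1, HAB1 and HAB2, and ABI1 and AHG3 were not called. Calls were made at an edgeR adjusted p under 0.05 over all genes tested. Imbibition changed a large part of the transcriptome: 52.5% of the genes tested were called, 27.2% higher and 25.2% lower, so the share of members called (7 of 9) has to be read against a background of that size. The members' median log2 fold change was -0.56, beside 0.05 for all genes. The dry and imbibed libraries of those 2 and 5 members did not overlap, which was so for 34.7% of all genes in the higher and 31.1% in the lower direction. All 7 calls held under each of the 20 alternatives tried. Markers moved with imbibition too. In Col-0 the pollen markers went from 233 to 406 CPM in dry seeds to 5.04 to 8.98 CPM in imbibed ones (8 of 9 called lower), and the seed markers from 147810 to 206167 CPM to 77264 to 122605 CPM (4 of 5 tested called lower). Among libraries labelled erf4 the pollen markers went from 30.4 to 61.9 CPM to 5.31 to 8.62 CPM (8 of 9 called lower), and the seed markers from 112606 to 137993 CPM to 60360 to 94246 CPM (3 of 5 tested called lower). The part of these changes in the members' values was not tested. RNA was taken from whole seeds, where fewer cells of a type and less RNA per cell cannot be told apart.

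The HAI genes moved in opposite directions. HAI3 (AT2G29380, chr2:12608675-12610350, plus strand), a phosphatase of the ABA-induced branch, stood at 59.9, 44.1 and 44.0 CPM in dry Col-0 and at 164, 154.5 and 208 CPM in imbibed Col-0. Every imbibed library was above every dry one, and HAI3 rose by 1.83 ± 0.18 (log2 ± SE, edgeR adjusted p = 3.48e-06), which is 3.55-fold. HAI2 (AT1G07430, chr1:2280746-2282828, minus strand), its closest relative, stood at 68.0, 66.4 and 74.8 CPM dry and at 188, 145 and 244 CPM imbibed. Its groups were also apart, and it rose by 1.46 ± 0.23 (edgeR adjusted p = 0.000173), or 2.76-fold. HAI1 (AT5G59220, chr5:23894404-23896939, minus strand), the third gene of the branch, stood at 22.1, 18.1 and 21.5 CPM dry and at 5.74, 3.26 and 7.99 CPM imbibed. HAI1 was lower in every imbibed library and fell by 1.86 on the log2 scale (SE 0.29, edgeR adjusted p = 0.000173). The ratio of HAI2 to HAI1, per kb, went from 3.36 to 4.0 in the dry libraries to 33.4 to 48.6 in the imbibed ones.

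The AHG genes also parted. AHG1 stood at 532, 621 and 835 CPM in dry Col-0 and at 303, 238 and 348 CPM in imbibed Col-0. It fell by 1.16 on the log2 scale (SE 0.19, edgeR adjusted p = 0.000243), with no overlap. AHG3, which carries the receptor-locking tryptophan that AHG1 lacks, stood at 127, 118 and 126 CPM dry and at 124, 136 and 158 CPM imbibed. These groups overlapped, and the difference of 0.17 ± 0.15 had a 95% interval of -0.15 to 0.50 (edgeR adjusted p = 0.348). AHG1 was at 4.77 to 7.53 times the level of AHG3, per kb, in the dry libraries and at 2.0 to 2.78 times in the imbibed ones.

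Among the germination and stomatal members, ABI2 (AT5G57050, chr5:23087122-23089631, plus strand) showed the lowest adjusted p of the family in this comparison. It stood at 92.9, 81.8 and 72.8 CPM in dry Col-0 and at 30.8, 26.7 and 25.7 CPM in imbibed Col-0, and fell by 1.57 on the log2 scale (SE 0.14, edgeR adjusted p = 1.35e-06). Its close relative ABI1 (AT4G26080, chr4:13219915-13222376, minus strand) stood at 36.4, 34.5 and 24.2 CPM dry and 42.9, 35.1 and 32.4 CPM imbibed. The ABI1 groups overlapped, and its difference was 0.22 ± 0.21 with a 95% interval of -0.24 to 0.68 (edgeR adjusted p = 0.419). The order of this pair was turned over, since ABI2 was 2.26 to 2.86 times the level of ABI1, per kb, in dry Col-0 and 0.683 to 0.754 times in imbibed Col-0.

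HAB1 and HAB2, which act beside ABI1 and ABI2 on the same kinases, moved alike. HAB1 (AT1G72770, chr1:27389948-27393327, plus strand) stood at 102, 104 and 134 CPM dry and 75.2, 60.0 and 71.8 CPM imbibed, and fell by 0.72 on the log2 scale (SE 0.14, edgeR adjusted p = 0.0007). HAB2 (AT1G17550, chr1:6034270-6037398, plus strand) stood at 87.6, 86.3 and 102 CPM dry and 72.6, 52.4 and 62.0 CPM imbibed, and fell by 0.56 (SE 0.13, edgeR adjusted p = 0.00251). In both, every imbibed library lay below every dry one. Their ratio per kb stayed between 0.874 and 1.24 over all 12 libraries.

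**Figure D2:**
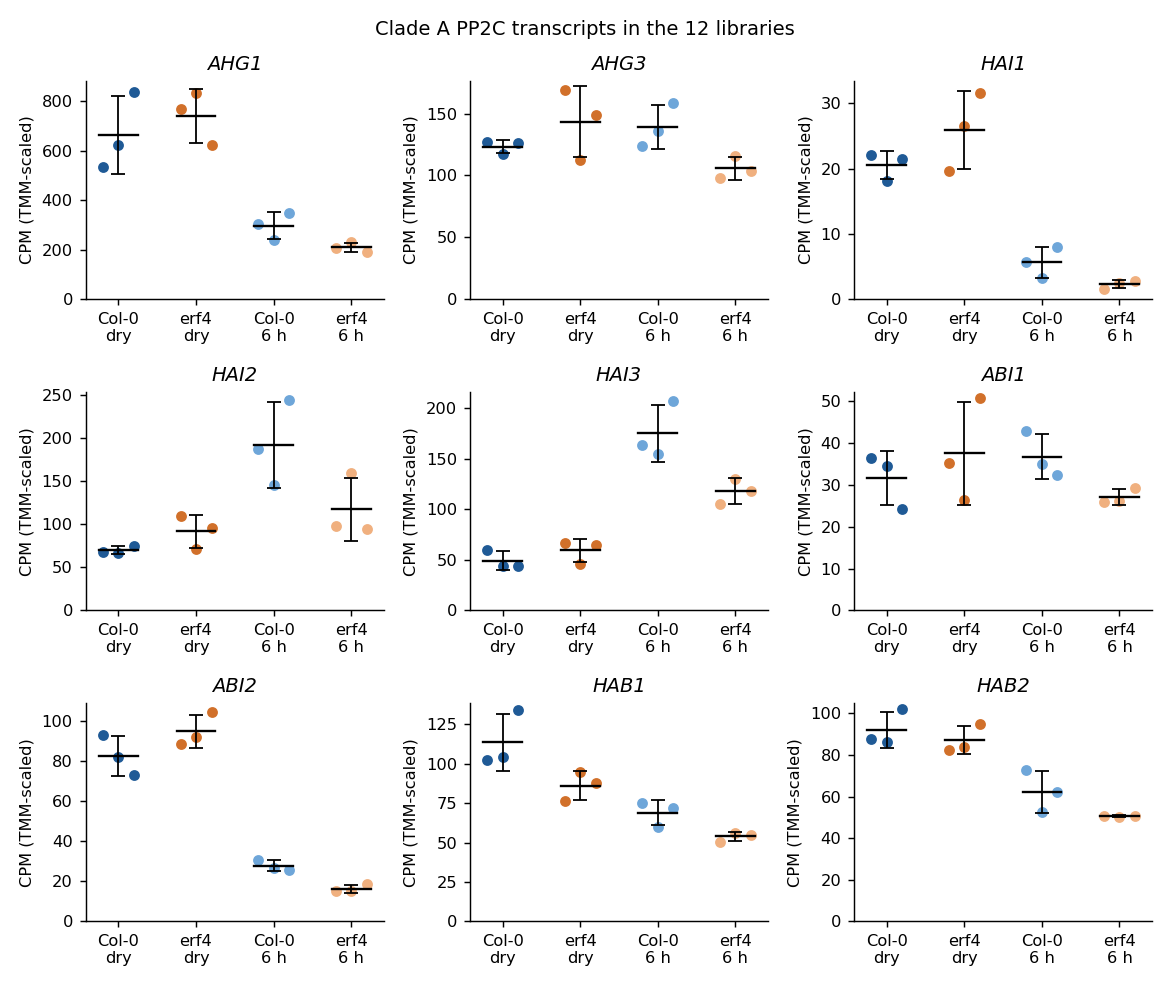
TMM-scaled CPM of each clade A PP2C gene in every library (points), with the mean and SD of each group of 3 (bars); each panel has its own linear axis from 0. HAI2 and HAI3 are higher in imbibed than in dry Col-0, AHG1, HAI1, ABI2, HAB1 and HAB2 are lower, and ABI1 and AHG3 overlap.

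In the libraries labelled erf4, 7 of 9 members were called between dry and imbibed seeds, against 55.5% of all genes (28.4% higher and 27.2% lower), with a median log2 fold change of -0.67 beside 0.04 for all genes. HAI3 rose, and HAI1, ABI2, AHG1, HAB1, HAB2 and AHG3 fell. These calls came from the main fit, which leaves out any pairing of dry and imbibed libraries by replicate number. The libraries of HAI3 were apart (31.1% of all genes in that direction), as were those of the 5 members that fell other than AHG3 (27.5% of all genes). HAI3 stood at 66.6, 46.3 and 64.9 CPM dry and at 105, 131 and 119 CPM imbibed, all above the dry values, and rose by 0.99 ± 0.18 (edgeR adjusted p = 0.000353). HAI2 stood at 109, 71.3 and 95.1 CPM dry and at 97.6, 159.6 and 94.7 CPM imbibed. One imbibed HAI2 library, replicate 2, was above the dry range and the other two lay within it, with a difference of 0.35 ± 0.23 and a 95% interval of -0.14 to 0.84 (edgeR adjusted p = 0.203).

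HAI1 had the largest fall of the family. It stood at 19.7, 26.5 and 31.6 CPM in dry seeds labelled erf4 and at 1.56, 2.44 and 2.78 CPM in imbibed ones, and fell by 3.52 on the log2 scale (SE 0.32, edgeR adjusted p = 1.76e-06), or 11.5-fold. ABI2 stood at 88.3, 91.8 and 104 CPM dry and at 15.1, 15.01 and 18.6 CPM imbibed, and fell by 2.55 (SE 0.14, edgeR adjusted p = 7.93e-08). AHG1 stood at 766, 832 and 621 CPM dry and at 206, 229 and 192 CPM imbibed, and fell by 1.82 (SE 0.20, edgeR adjusted p = 6.34e-06). In these 3 genes the dry and imbibed libraries were far apart.

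HAB2 fell by 0.78 on the log2 scale (SE 0.13, edgeR adjusted p = 0.000199), and its 3 imbibed libraries lay within 50.0 to 50.8 CPM. HAB1 fell by 0.67 (SE 0.14, edgeR adjusted p = 0.00104). AHG3 stood at 169, 112 and 149 CPM dry and at 97.9, 116 and 104 CPM imbibed, where dry replicate 2 lay inside the imbibed range. The AHG3 fall of 0.44 on the log2 scale (SE 0.15, edgeR adjusted p = 0.0233) was the call of the family that did not hold: it was lost under 7 of 21 alternatives, with edgeR adjusted p = 0.0961 without dry replicate 1, 0.0595 without dry replicate 3, 0.077 without imbibed replicate 1, 0.0675 without imbibed replicate 3, 0.104 without both libraries of number 3, 0.0519 with the last letter of the library name as covariate (explained below with HAB1) and 0.0717 with just these groups. ABI1 stood at 35.4, 26.4 and 50.9 CPM dry and at 25.9, 26.1 and 29.2 CPM imbibed, groups that overlapped. Its difference was -0.48 ± 0.21 (edgeR adjusted p = 0.0743), and ABI1 was called when dry replicate 2 was left out (edgeR adjusted p = 0.0126) and with the replicate number as a block in these groups alone (edgeR adjusted p = 0.0268). Without both libraries of number 3, the other 6 calls held.

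**Figure D3:**
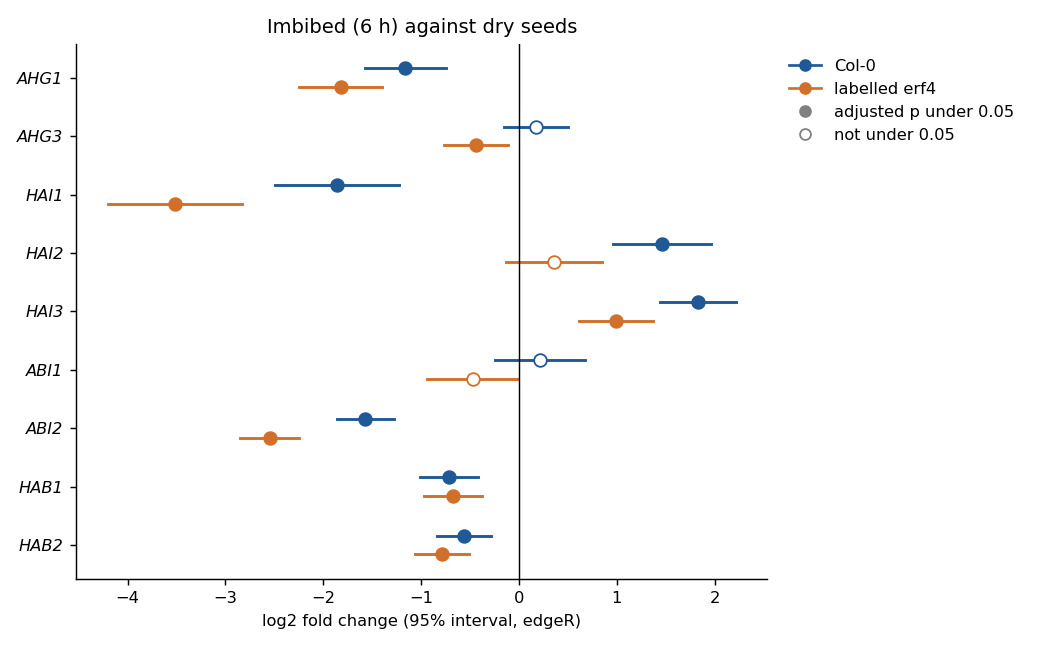
Log2 fold change of each gene from dry to imbibed seeds with its 95% interval, in Col-0 and in the libraries labelled erf4; filled points have an edgeR adjusted p under 0.05. HAI3 is above 0 in both genotypes, HAI2 is called in Col-0 (1.46) and not in the libraries labelled erf4 (0.35), and HAI1, ABI2, AHG1, HAB1 and HAB2 are below 0 in both.

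The 300 bases before the annotated start of each gene were searched for ACGTG, the core of the ABA-responsive element that ABF and ABI5 type factors bind, on both strands. They were also searched for CACGTG, the G-box, which is its own reverse complement and so counts as a pair of ACGTG matches, and for GCCGCC, the box that ERF factors are known for. Windows are shown for HAI2 and HAI3, the members that rose in Col-0, for HAI1, the HAI gene that fell, and for AHG3, which shared the highest match count with HAI2. They were read from TAIR10.1 at the RefSeq gene starts, 5′ to 3′ on the strand of the gene, with matches to ACGTG or its reverse complement in capitals: HAI2 chr1:2282829-2283128 (minus strand), HAI3 chr2:12608375-12608674 (plus strand), AHG3 chr3:3585851-3586150 (minus strand) and HAI1 chr5:23896940-23897239 (minus strand).
HAI2: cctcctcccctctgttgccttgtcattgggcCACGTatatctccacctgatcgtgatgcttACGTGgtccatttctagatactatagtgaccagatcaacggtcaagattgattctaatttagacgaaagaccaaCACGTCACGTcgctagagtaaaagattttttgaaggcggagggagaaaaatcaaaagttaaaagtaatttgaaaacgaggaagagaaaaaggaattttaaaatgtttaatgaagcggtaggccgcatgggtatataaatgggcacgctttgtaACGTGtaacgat
HAI3: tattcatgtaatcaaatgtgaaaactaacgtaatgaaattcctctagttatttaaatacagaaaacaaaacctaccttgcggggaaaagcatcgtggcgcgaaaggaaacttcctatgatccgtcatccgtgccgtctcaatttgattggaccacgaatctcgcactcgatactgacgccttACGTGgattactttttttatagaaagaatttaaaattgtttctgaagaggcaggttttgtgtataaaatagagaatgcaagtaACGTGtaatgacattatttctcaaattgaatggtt
AHG3: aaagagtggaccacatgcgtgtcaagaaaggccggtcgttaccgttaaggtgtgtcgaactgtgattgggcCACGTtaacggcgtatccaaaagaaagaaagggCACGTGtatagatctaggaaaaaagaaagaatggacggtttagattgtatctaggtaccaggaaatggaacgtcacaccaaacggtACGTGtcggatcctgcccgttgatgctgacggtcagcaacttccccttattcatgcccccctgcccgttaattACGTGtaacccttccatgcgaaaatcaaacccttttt
HAI1: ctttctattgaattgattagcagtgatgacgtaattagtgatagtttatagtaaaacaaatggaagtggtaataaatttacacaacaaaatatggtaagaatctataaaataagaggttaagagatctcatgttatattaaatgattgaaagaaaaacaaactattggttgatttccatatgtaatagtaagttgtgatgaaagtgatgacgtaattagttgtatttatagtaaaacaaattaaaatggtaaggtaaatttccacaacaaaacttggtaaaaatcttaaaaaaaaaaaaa
HAI2 and AHG3 held 5 matches each, HAI3, AHG1 and HAB2 2 each, ABI1 and HAB1 1 each, and ABI2 and HAI1 none. At least 1 match stood in 7 of the 9 windows, beside 25.6% of 27443 windows of the same length before all genes searched, and at least 4 in 2 windows, beside 1.56%. CACGTG was found in AHG1 and AHG3 (7.09% of all windows), and GCCGCC in no member (2.26% of all windows). In Col-0 HAI2 with 5 matches and HAI3 with 2 rose, while AHG3 with 5 and ABI1 with 1 were not called. AHG1 and HAB2 with 2 each, HAB1 with 1, and HAI1 and ABI2 with none fell. Whether the matches go with the direction of change was not tested. A match is a run of letters and not evidence of binding.

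In dry seeds edgeR called no member between the libraries labelled erf4 and Col-0, where 1.1% of all genes were called, and DESeq2, which called 4.52% of all genes it tested, called none of them either. The members' log2 differences ran from -0.40 for HAB1 to 0.40 for HAI2, with a median of 0.22 beside 0.01 for all genes, and 8 of the 9 members overlapped between genotypes. HAB1 was the single member at an unadjusted p under 0.05, beside 15.6% of all genes. It stood at 102, 104 and 134 CPM in dry Col-0 and at 76.2, 94.6 and 87.5 CPM in dry seeds labelled erf4. All 3 HAB1 values of the latter were below those of Col-0, as was so for 10.5% of all genes, with a log2 difference of -0.40 ± 0.14 (edgeR adjusted p = 0.174). The library names end in a letter, b or r, whose meaning is not given in the sources used here. Dry Col-0 replicates 1 and 2 and dry replicate 1 labelled erf4 ended in b, and all other libraries in r. Every imbibed library thus had r, so the letter is uneven between dry and imbibed seeds in both genotypes. It is also uneven between genotypes in dry seeds, and does not vary within imbibed seeds. HAB1 was lower among the dry libraries with b (76.2 against 102 and 104 CPM) and among those with r (94.6 and 87.5 against 134 CPM), and with this letter as a covariate it was called (-0.50, edgeR adjusted p = 0.0425). Averaged over both states HAB1 differed by -0.38 ± 0.10 (edgeR adjusted p = 0.0554), again with no member called beside 2.38% of all genes and 3 members at an unadjusted p under 0.05 (19.2% of all genes). That HAB1 value was called without dry replicate 2 of the libraries labelled erf4 (edgeR adjusted p = 0.0364), with the letter as covariate (edgeR adjusted p = 0.0135) and by DESeq2 (adjusted p = 0.0154), which called 7.29% of all genes it tested.

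In imbibed seeds all 9 members had a lower mean in the libraries labelled erf4 than in Col-0, yet edgeR called none. Few genes were called at all in this comparison, 0.0212% of those tested. The members' log2 differences ran from -1.32 to -0.30, with a median of -0.51 beside 0.01 for all genes, of which 48.9% were below 0. Unadjusted, 8 of the 9 members had a p under 0.05, beside 15.0% of all genes. In 8 of 9 every library labelled erf4 lay below every Col-0 library, which was so for 12.7% of all genes, and HAI2 was the one that overlapped. The same number, 8 of 9, were apart when both libraries of number 3 were left out (17.8% of all genes). The seed markers overlapped between these groups, at 77264 to 122605 CPM in imbibed Col-0 and 60360 to 94246 CPM in imbibed seeds labelled erf4, and edgeR and DESeq2 called 0 of the 5 tested (1 at an unadjusted p under 0.05).

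ABI2 came nearest to a call. It stood at 30.8, 26.7 and 25.7 CPM in imbibed Col-0 and at 15.1, 15.01 and 18.6 CPM in imbibed seeds labelled erf4, a log2 difference of -0.77 ± 0.13 (edgeR adjusted p = 0.0787). Over its 20 alternatives the adjusted p ran from 0.000166, by DESeq2, to 0.395, with 0.0446 when no filter on low counts was used and 0.125 without both libraries of number 3 (-0.89 ± 0.14, edgeR). HAI1 stood at 5.74, 3.26 and 7.99 CPM in Col-0 and at 1.56, 2.44 and 2.78 CPM in the libraries labelled erf4. The HAI1 difference of -1.32 ± 0.30 had an edgeR adjusted p of 0.122 (0.00446 by DESeq2) and became -1.50 ± 0.35 without both libraries of number 3 (edgeR adjusted p = 0.237). DESeq2 called these 2 members and 2.82% of all genes it tested.

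The other 7 members had smaller estimates. HAI3 stood at 164, 154.5 and 208 CPM in imbibed Col-0 and at 105, 131 and 119 CPM in the libraries labelled erf4 (-0.57 ± 0.17, edgeR adjusted p = 0.189). HAI2 was at 188, 145 and 244 CPM against 97.6, 159.6 and 94.7 CPM, where the highest of the latter lay above the lowest of Col-0 (-0.71 ± 0.23, edgeR adjusted p = 0.199). AHG1 was at 303, 238 and 348 CPM against 206, 229 and 192 CPM (-0.51 ± 0.19, edgeR adjusted p = 0.251). For AHG3, ABI1, HAB1 and HAB2 the log2 differences were between -0.44 and -0.30, with edgeR adjusted p from 0.251 to 0.351.

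**Figure D4:**
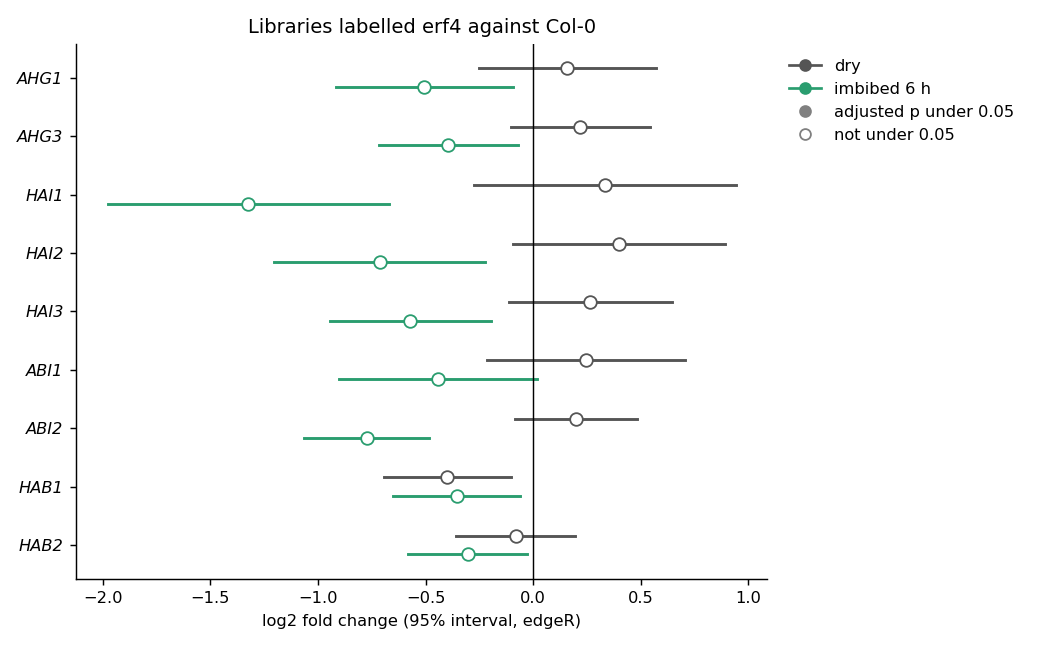
Log2 difference between libraries labelled erf4 and Col-0 for each gene with its 95% interval, in dry and in imbibed seeds; open points have an edgeR adjusted p of 0.05 or more, which holds for all 18. In imbibed seeds the 9 estimates lie between -1.32 and -0.30, and in dry seeds between -0.40 and 0.40.

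Whether the genotype difference itself changed with imbibition was tested as an interaction, imbibed minus dry. By edgeR 0 of the 9 members and 0.0% of all genes were called, with 1980 genes and 7 members at an unadjusted p under 0.05 (10.5% of all genes). DESeq2 called 187 genes (1.07% of those it tested), ABI2 and HAI1 among them. ABI2 changed its genotype difference by -0.97 ± 0.19 on the log2 scale (edgeR adjusted p = 0.164, DESeq2 adjusted p = 0.0021). The HAI1 interaction was -1.66 ± 0.41 (edgeR adjusted p = 0.25, DESeq2 adjusted p = 0.0258) and that of HAI2 was -1.11 ± 0.32 (edgeR adjusted p = 0.287). HAI2 was thus called upon imbibition in Col-0 and not in the libraries labelled erf4, while the difference between these responses did not pass the test.

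DOG1, the dormancy protein that binds AHG1 and AHG3, was lower in the libraries labelled erf4 when both states were averaged. DOG1 stood at 43.9, 63.3 and 52.2 CPM in dry Col-0 and at 35.1, 31.6 and 25.1 CPM in dry seeds labelled erf4, with all values of the latter lower. In imbibed seeds DOG1 was at 15.1, 16.3 and 25.6 CPM in Col-0 and at 11.9, 10.6 and 10.97 CPM in the libraries labelled erf4. The averaged DOG1 difference was -0.78 on the log2 scale (SE 0.14, edgeR adjusted p = 0.0183), and this call was lost without both libraries of number 3 (edgeR adjusted p = 0.0711). Within each state edgeR did not call DOG1 (adjusted p = 0.0742 dry and 0.15 imbibed), while DESeq2 did (adjusted p = 0.0129 and 0.0333). With imbibition DOG1 fell by 1.49 in Col-0 (SE 0.20, edgeR adjusted p = 4.98e-05). RDO5, a PP2C-like dormancy protein outside clade A, was not called upon imbibition of Col-0 (0.27 ± 0.19, edgeR adjusted p = 0.253). In the libraries labelled erf4 RDO5 fell by 0.79 (SE 0.19, edgeR adjusted p = 0.00285). The difference between these RDO5 responses, -1.06, was not called by edgeR but was by DESeq2 (adjusted p = 0.0366). In imbibed seeds RDO5 differed between genotypes by -0.73 ± 0.19 (edgeR adjusted p = 0.14, DESeq2 adjusted p = 0.0247).

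The partners of the phosphatases were taken from lists of the ABA pathway. Their counts stand beside the same shares over all genes, 27.2% higher and 25.2% lower in Col-0 with a median log2 fold change of 0.05, and 28.4% and 27.2% in the libraries labelled erf4 with a median of 0.04. Of 14 receptors 12 were tested, and upon imbibition of Col-0 7 rose and 1 fell, with a median log2 fold change of 0.90. PYL4 stood at 3.67, 3.75 and 1.28 CPM in dry Col-0 and at 46.7, 59.4 and 49.9 CPM in imbibed Col-0, and rose by 4.15 ± 0.51 (edgeR adjusted p = 4.85e-05). PYL2 rose 2.52-fold (log2 SE 0.22, edgeR adjusted p = 0.000241). PYL6 went from at most 0.0731 CPM to between 4.0 and 5.59 CPM and was called higher (edgeR adjusted p = 4.6e-06). In the libraries labelled erf4 6 receptors rose and 3 fell, PYL6 was without a count in dry seeds and at least 135-fold higher in imbibed ones against a floor of 3 counts over the group, and PYL7 fell by 2.37 on the log2 scale (SE 0.33, edgeR adjusted p = 4.45e-05). The receptor that fell in Col-0, PYL7 (-0.93 ± 0.31, edgeR adjusted p = 0.0226), lost its call without dry replicate 1 (0.072) and without imbibed replicate 2 (0.106) or 3 (0.08). PYL5 in the libraries labelled erf4 lost its call without dry replicate 1 (edgeR adjusted p = 0.08) and without imbibed replicate 2 (0.126), and PYL13 without both libraries of number 3 (0.0602). Summed per kb, the receptors went from between 125.5 and 147 CPM to between 286 and 394 CPM in Col-0. PYL11 gained most in that sum, from a mean of 19.96 to 126.0 CPM per kb, beside 2.02 to 36.1 for PYL4.

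Of the 3 SnRK2 kinases that the phosphatases restrain, OST1 rose and the other two fell upon imbibition of Col-0. OST1 stood at 12.3, 9.70 and 10.82 CPM dry and at 44.8, 41.2 and 36.8 CPM imbibed, and rose by 1.90 ± 0.16 (edgeR adjusted p = 1.22e-06). SNRK2.2 fell by 0.75 on the log2 scale (SE 0.12, edgeR adjusted p = 0.0002). SNRK2.3 fell by 0.59 (SE 0.12, edgeR adjusted p = 0.00126). Averaged over both states OST1 was also lower in the libraries labelled erf4, by -0.64 ± 0.11 (edgeR adjusted p = 0.0157, and 0.0438 without both libraries of number 3). Leaving out replicate 1 of imbibed Col-0 ended that call (edgeR adjusted p = 0.0534).

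Of 9 transcription factors tested 2 rose and 7 fell in Col-0, with a median of -0.79. ABI4, an AP2-type activator of the ABA response in seeds, rose by 2.43 ± 0.30 (edgeR adjusted p = 2.85e-05), EEL, a bZIP factor of seed maturation, fell by 1.84 (SE 0.18, edgeR adjusted p = 3.24e-06), and AREB3, another bZIP factor, fell by 0.79 (SE 0.11, edgeR adjusted p = 8.31e-05). In the libraries labelled erf4 the counts were again 2 and 7, and ABI5 fell by 1.92 (SE 0.24, edgeR adjusted p = 2.4e-05). The bZIP67 call there was lost without dry replicate 2 (edgeR adjusted p = 0.0639) and without imbibed replicate 2 (0.0981). Of 5 regulators of PP2C protein turnover 2 fell in both genotypes, PUB13, a ubiquitin ligase that targets ABI1 (-0.80 ± 0.11 in Col-0, edgeR adjusted p = 6.71e-05), and BPM5, an adaptor of cullin ligases (-0.73 ± 0.16 in Col-0, edgeR adjusted p = 0.0018). The ligase gene RGLG1 was lower in the libraries labelled erf4 averaged over both states (-0.51 ± 0.12, edgeR adjusted p = 0.048). That RGLG1 call was lost without any 1 of 11 libraries, with edgeR adjusted p up to 0.117 without imbibed Col-0 replicate 1, without both libraries of number 3 (0.0765) and with the replicate number as a block (0.0571). The 5 ABA response genes, which lie at the far end of the pathway, had 3 that fell in Col-0 and 5 in the libraries labelled erf4, with medians of -0.87 and -1.68. Of these, RD29B in Col-0 lost its call without dry replicate 3 (edgeR adjusted p = 0.0792) and without imbibed replicate 2 (0.0672). RD29A in the libraries labelled erf4 lost it without dry replicate 3 (edgeR adjusted p = 0.112), without imbibed replicate 2 (0.0855) and without both libraries of number 3 (0.0709), which left 4. RAB18, a dehydrin gene of the list, fell by 1.88 in Col-0 (SE 0.33, edgeR adjusted p = 0.000359) and by 3.27 in the libraries labelled erf4 (SE 0.35, edgeR adjusted p = 5.76e-06). Between genotypes edgeR called no receptor, kinase, transcription factor, regulator or response gene in dry seeds, in imbibed seeds or in the interaction. In imbibed seeds, as for the 9 phosphatases, all 5 response genes were below 0 (median -0.75), 3 with an unadjusted edgeR p under 0.05. Below 0 there were also 9 of 12 receptors, 4 of 9 transcription factors, 1 of 3 kinases and 4 of 5 regulators. Over all genes 48.9% were below 0 in imbibed seeds, and 15.0% had an unadjusted edgeR p under 0.05. In the interaction all 5 response genes were below 0 (median -0.96), 4 with an unadjusted edgeR p under 0.05. Over all genes 9677 of 18897 were below 0 there, and 10.5% had an unadjusted edgeR p under 0.05. DESeq2 called PYL1 in dry seeds (adjusted p = 0.00601), OST1 in dry (0.0455) and imbibed seeds (0.00313) and RAB18 in imbibed seeds (0.0464), beside 4.52% and 2.82% of all genes it tested in the dry and imbibed comparisons, and none in the interaction. With the last letter of the library name as covariate edgeR also called PYL1 in dry seeds (adjusted p = 0.0431). PYL1 was low there, at 0.747, 0.289 and 0.219 CPM in Col-0 and 1.74, 0.888 and 1.62 CPM in the libraries labelled erf4. Its log2 difference was 1.75 ± 0.46 (edgeR adjusted p = 0.0876, and 0.197 without both libraries of number 3).

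**Figure D5:**
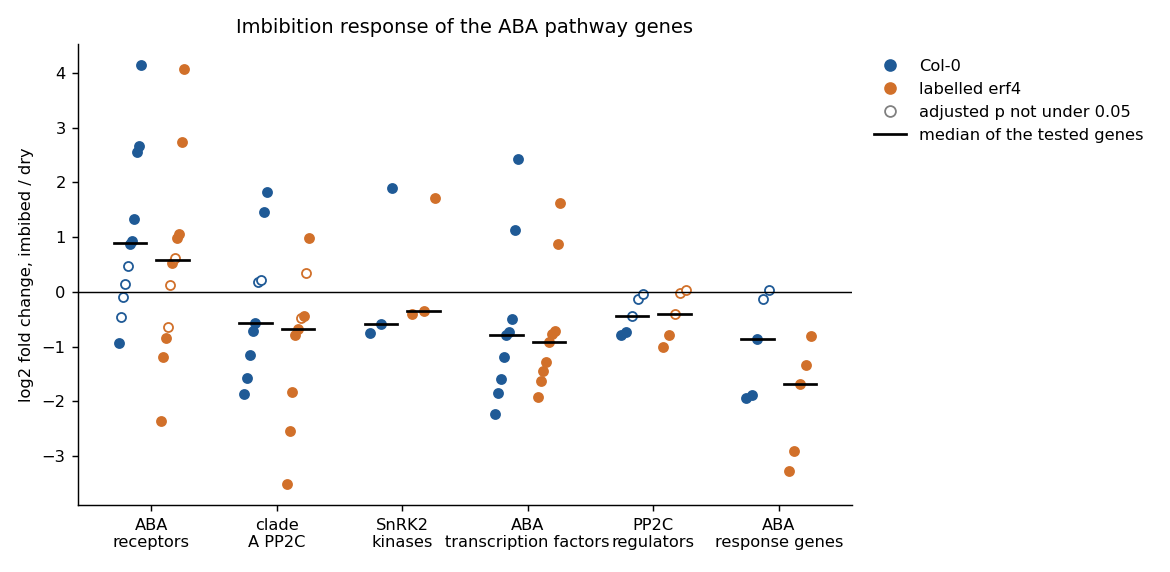
Log2 fold change from dry to imbibed seeds of each tested gene in the ABA pathway lists, in Col-0 and in the libraries labelled erf4, with the median of each list as a bar; PYL6, which had no count in dry seeds labelled erf4, is not drawn but counts in the medians. Receptors have medians of 0.90 and 0.58, the phosphatases -0.56 and -0.67, and the ABA response genes -0.87 and -1.68.

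For each member the gene with the most similar profile over the 12 libraries was found, by the root mean square difference of log2 CPM after centring, among 15779 genes with a mean of at least 1 CPM. The HAB genes had the nearest neighbours, SD2-5 for HAB1 (0.0824) and AT3G45830 for HAB2 (0.087). AHG1 was nearest to GBF2, a G-box binding bZIP factor (0.129), ABI1 to ASG7 (0.132), AHG3 to CPK28 (0.14), HAI3 to ARI13 (0.18), ABI2 to CZF1 (0.208) and HAI2 to AT3G53730, a histone gene (0.231). HAI1 had the most distant neighbour, AT1G14200 (0.34). Within the family HAB1 and HAB2 were closest (0.146), followed by ABI1 and AHG3 (0.268) and by HAI2 and HAI3 (0.338), while the sequence pair ABI1 and ABI2 did not pair by profile: ABI2 was nearest to AHG1 (0.428). These distances are not scaled to how much a gene moved, and AHG3, whose own root mean square deviation was 0.228, lay nearer to a flat profile than to ABI1. Genes outside the pairs were often nearer: 219 lay closer to ABI1 than AHG3 did and 1014 closer to AHG3 than ABI1 did, 65 closer to HAI2 than HAI3 did and 227 closer to HAI3 than HAI2 did, and 73 and 76 for HAB1 and HAB2.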

How the data were processed

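RNA sequencing of whole seeds gave 12 libraries in 4 groups of 3. The authors deposited raw whole-number counts per gene, beside each gene's position and the length of its exons. According to the submitters' processing notes, the build was TAIR10 and featureCounts 2.0.1, HISAT2 2.1.0, fastp 0.20.0 and DESeq2 1.34.0 were used. The strand setting is not given in the sources used here, so reads of ABI1 and its overlapping neighbour cannot be told apart where they overlap. Each library was placed by its title, and every count column belonged to a sample.

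From these counts, genes were filtered with filterByExpr (18897 genes, 99.97% of the counts), scaled by TMM and fitted in edgeR 4.0.16 (R 4.3.3) as 1 quasi-likelihood model of 4 group means (biological coefficient of variation 0.241, 8 residual degrees of freedom), with Benjamini-Hochberg adjustment over all genes and a threshold of 0.05. CPM are TMM-scaled. Replicates correlated at r = 0.958 to 0.983 across genes and differed by more than counting error (chi-square per degree of freedom 20.5 to 157.5). A floor of 3 counts allows for counting error alone. The rule on names took all members, ERF4, DOG1, RDO5, up to 3 called genes of each pathway list or the 1 with the smallest p, and the nearest profile of each member; the upstream windows shown were chosen after their match counts were known. The members and lists were chosen with earlier results of these data known. RGLG5 and EAR1 were left out because the annotation gives their identifiers no such symbol.

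Sequences came from the RefSeq TAIR10.1 genome, where 32532 of 32548 nuclear genes (99.95%) had the start and end of the deposited table, all members among them. Codons were aligned with mafft 7.526 and copies sought with blastn 2.17.0. Identity is given over coding bases; protein sequences were not used here. Alternatives were RLE size factors, other filters, the last letter of each library name as a term, a block on replicate number, only the groups compared, leaving out each library or both libraries labelled erf4 of number 3, and DESeq2 1.42.0. A block on the 2 groups labelled erf4 was added after seeing the data. In that added fit the replicate numbers were taken to pair dry and imbibed libraries labelled erf4, since their deviations from the group means correlated at 0.341, 0.343 and 0.35. In the other comparisons at least 1 pair was at or below 0.1. The main fit had no block, so its p-values for imbibition in the libraries labelled erf4 are unpaired.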

Additional observations from a re-analysis of the deposited data

How the results depend on the processing

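With the replicate number as a block on all 12 libraries no member's call changed, and the genes called were 204 in dry seeds, 6 in imbibed seeds, 379 averaged, 9836 upon imbibition of Col-0, 10392 in the libraries labelled erf4 and 0 for the interaction. With the 2 groups labelled erf4 fitted alone, 8820 genes and 6 members were called without the block and 11183 genes and 8 members with it; the block added ABI1 (-0.43, edgeR adjusted p = 0.0268) and AHG3 (0.0302, against 0.0717 without it). Without a block 207, 4, 449, 9915, 10496 and 0 genes were called.

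Members called between genotypes were 0 in each comparison, and became 1 with the suffix letter (dry, and averaged), 1 with no filter (imbibed), and by DESeq2 2 (imbibed), 1 (averaged) and 2 (interaction). Leaving out 1 library gave 0 to 1 members for the averaged difference. Over all genes the suffix letter gave 464 (dry) and 1162 (averaged) calls, the groups compared alone 114 (dry), no filter 18 (imbibed) and 4 (interaction), and DESeq2 901 (dry), 493 (imbibed), 1451 (averaged) and 187 (interaction). Leaving out 1 library gave 41 to 284 genes (dry, fewest without dry Col-0 replicate 1), 4 to 47 (imbibed, most without imbibed replicate 2 labelled erf4), 88 to 1094 (averaged, fewest without imbibed Col-0 replicate 1, most without dry replicate 2 labelled erf4) and 0 to 15 (interaction, most without dry replicate 1 labelled erf4), and leaving out both libraries labelled erf4 of number 3 gave 69 (dry) and 96 (averaged). Fewer samples enter the fits that leave libraries out; beyond that the cause was not tested.

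Uncalled values that changed sign were the ABI1 difference in dry seeds (-0.0352 to 0.444 with 1 library left out, lowest without dry replicate 3 labelled erf4, and -0.033 without both libraries of number 3) and the HAB1 interaction (-0.093 to 0.1151 with 1 library left out, below 0 in 4 cases). Ranks of the members per kb of coding length matched those per kb of exonic length in 28 of 36 places. By TPM they matched in 36, which is no separate check. TPM uses the same counts and exonic lengths, so within a library its order is that of CPM per kb.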

Other observations

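PP2C genes outside clade A gave a comparison within the enzyme family. The annotation describes 66 such genes, and 59 were tested. Upon imbibition of Col-0 12 rose and 23 fell by edgeR, with a median log2 fold change of -0.28, and in the libraries labelled erf4 12 rose and 29 fell, with a median of -0.42. Over all genes 27.2% rose and 25.2% fell in Col-0, and 28.4% and 27.2% in the libraries labelled erf4. Between genotypes in imbibed seeds edgeR called none of them, DESeq2 called 3, the unadjusted p was under 0.05 for 19, and 38 of the 59 were below 0 with a median of -0.16. Over all genes edgeR called 0.0212%, DESeq2 2.82%, 15.0% had an unadjusted p under 0.05, and 48.9% were below 0. In dry seeds edgeR also called none, DESeq2 called 1, and the unadjusted p was under 0.05 for 4, beside 1.1%, 4.52% and 15.6% of all genes.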
